A study of Drosophila melanogaster with 2 samples.

Results

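The 2767 second-tier places described here are regions of the Drosophila melanogaster genome that were enriched in chromatin immunoprecipitation of the transcription factor Dati but lay outside the peak list that passed the study's reproducibility threshold. They were chosen by signal value and by position: the deposited ranked list of 156658 places was sorted by signal, the 3000 rows after row 2000 up to row 5000 were taken, and a row was kept when it lay on 1 of the 6 chromosome arms and shared no base with a thresholded peak. Of these 3000 rows, 38 lay off the arms and 195 overlapped a thresholded peak, which left 2767 members, 1.77% of the ranked list. The study contains 1 group of 2 biological replicates, both of whole embryos aged 8 to 24 h that carried a dati-eGFP transgene, in which the Dati protein is tagged with enhanced green fluorescent protein, and both were precipitated with an antibody against GFP. A single control alignment served both replicates. No embryos without the transgene, of another age or of another genotype are compared here, and the whole embryo mixes all tissues, so a place bound in few cells and a place bound weakly in many cannot be told apart. Each replicate's own ranked list was used for the values per sample.

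Dati (datilógrafo) is a zinc finger transcription factor of the fly, known from the nervous system and for its part in how females respond to courting males. In chromatin immunoprecipitation followed by sequencing, DNA bound by the tagged protein is recovered and counted along the genome, and a peak caller scores places where the recovered DNA exceeds the control. The irreproducible discovery rate (IDR) then compares the order of peaks between replicates, and a thresholded list holds the places whose order is repeatable. A promoter holds the start site of a gene and the sequence beside it, while introns and the DNA between genes hold many of the enhancers that set where and when a gene is used.

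To show the base content that the comparisons below turn on, the windows of 50 bp to each side of the summit are printed for the member of highest signal in a promoter, an intron and between genes, among members that touched no annotated exon and lay on an arm whose sequence is shown here. All are on the plus strand of the dm6 assembly, with the sequence from RefSeq, and G and C are in capitals. The promoter member lay on chrX:11454559-11454659, 177 bp upstream of HP5, the intronic member on chr3L:12276519-12276619 inside Sms (spermine synthase), and the intergenic member on chr3L:11296447-11296547, 578 bp upstream of Dyro.
HP5: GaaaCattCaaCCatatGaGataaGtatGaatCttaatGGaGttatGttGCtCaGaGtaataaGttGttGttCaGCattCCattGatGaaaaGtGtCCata
Sms: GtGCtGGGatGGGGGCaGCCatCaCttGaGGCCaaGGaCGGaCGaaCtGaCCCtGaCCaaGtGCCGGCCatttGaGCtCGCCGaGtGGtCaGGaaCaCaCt
Dyro: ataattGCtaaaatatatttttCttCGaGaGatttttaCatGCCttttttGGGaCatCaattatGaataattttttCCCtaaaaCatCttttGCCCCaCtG
Their GC contents were 32.7%, 61.4% and 28.7%, so the members of highest signal already spanned most of the range described below. For comparison, and chosen after their values were seen, the windows of the thresholded peak of highest signal in a promoter (chr3L:19590564-19590664, 90 bp upstream of CG14100), in an intron (chr2L:6612658-6612758, in CG11050) and between genes (chr3R:16222432-16222532, 3169 bp upstream of tara) are also printed. Their GC contents were 28.7%, 22.8% and 48.5%, so the intergenic pair ran against the order of the medians given below.
CG14100: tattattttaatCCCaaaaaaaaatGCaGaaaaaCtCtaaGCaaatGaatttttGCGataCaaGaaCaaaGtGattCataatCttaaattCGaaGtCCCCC
CG11050: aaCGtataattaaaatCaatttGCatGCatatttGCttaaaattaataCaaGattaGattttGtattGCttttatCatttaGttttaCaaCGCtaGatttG
tara: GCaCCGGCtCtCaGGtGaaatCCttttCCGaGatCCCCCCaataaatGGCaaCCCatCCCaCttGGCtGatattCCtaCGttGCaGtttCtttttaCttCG
The last pair shows the letters of 2 motifs on which the sets differed, in capitals and read on either strand. The window of the ftz-f1 member (chr3L:18786845-18786945, intron of a nuclear receptor gene) holds TATAAA, and that of the Pvf2 member (chr2L:7073227-7073327, intron of a growth factor gene) holds GAGAG at 2 positions.
ftz-f1: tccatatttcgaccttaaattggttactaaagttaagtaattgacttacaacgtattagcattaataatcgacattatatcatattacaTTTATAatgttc
Pvf2: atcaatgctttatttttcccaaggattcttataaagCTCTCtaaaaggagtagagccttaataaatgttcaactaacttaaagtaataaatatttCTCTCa

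The signal that chose the members ran from 42.8 to 55.3, with a median of 46.1 and quartiles of 44.2 and 48.9, and these values are a description with no test. The row just outside the upper end had a signal of 55.34 and the first row inside had 55.33, while the last row inside had 42.80 and the first row beyond it 42.79, so neither end of the range falls at a gap. The median signal of the 1892 thresholded peaks on the arms was 78.6. The working name of the places, peaks below the thresholded set, held for position but only in part for signal: 223 thresholded peaks had a signal under that of the highest member, 195 of them within the same rows and 28 under the lowest member. The IDR of the members had a median of 0.0517 and a range of 0.00554 to 0.812, with 1348 members (48.7%) at 0.05 or lower and 761 (27.5%) above 0.1. A second deposited list, the conservative thresholded set, overlapped 54 members. Every member was 264 bp wide, as were 1764 (93.2%) of the thresholded peaks, and in all of those the summit stood at the middle of the interval, so distances from the summit are distances from the midpoint. No members overlapped each other. The closest pair of summits lay 415 bp apart, 80 neighbouring pairs lay within 1000 bp, and the median distance between neighbouring summits was 21882 bp.

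The 2 replicates both saw most members, but not to the same degree. A place of the replicate's own ranked list overlapped the member in both replicates for 2529 members (91.4%), in replicate 1 alone for 147, in replicate 2 alone for 87, and in neither for 4. Where a replicate had a place, the signal in replicate 1 had a median of 22.5 (quartiles 18.7 and 26.7, range 6.14 to 60.1) and in replicate 2 a median of 23.2 (quartiles 19.3 and 27.0, range 3.59 to 58.3). The medians were alike while single members were not: dividing the signal of replicate 2 by that of replicate 1 gave a median of 1.04, with 5th and 95th percentiles of 0.455 and 2.19, and the SD of the log2 ratio was 0.71 over the members in both lists. The same SD was 0.60 for the thresholded peaks. The members' median rank was 6325.5 in replicate 1 and 6798 in replicate 2, against 1011.5 and 1055.5 for the thresholded peaks. Of the members, 43 overlapped replicate 1's own thresholded list and 7 that of replicate 2, and 0 overlapped both. Because the pooled signal chose the members, the values of the replicates are tied to each other and no correlation is given.

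**Figure D1:**
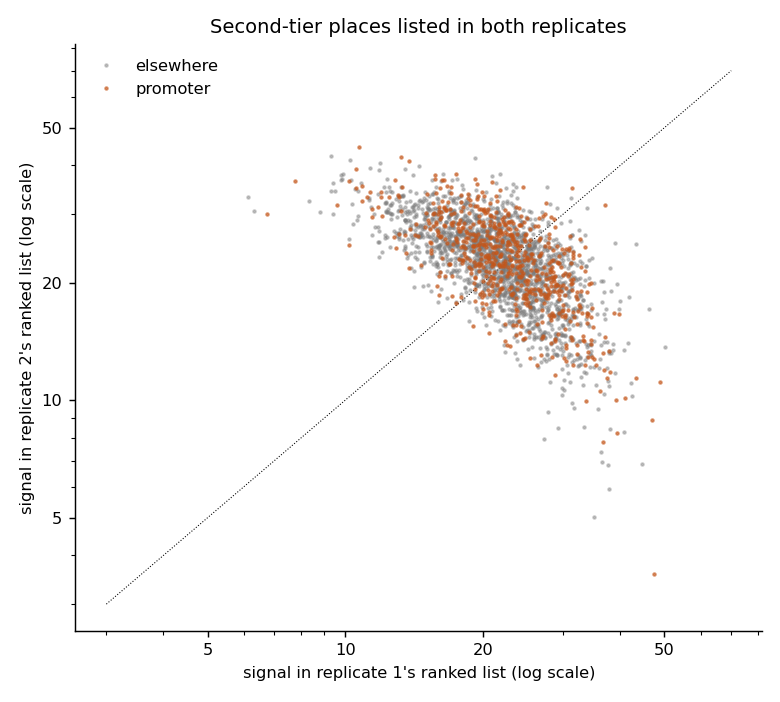
Signal of each member in the ranked lists of replicate 1 (horizontal, log scale) and replicate 2 (vertical, log scale), with promoter members in orange and all others in grey; the dotted line marks equal signal. The points lie across the line in a narrow band, since members were chosen by pooled signal, and the medians were 22.5 and 23.2.

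The members were found at promoters less often, and in coding exons far more often, than the thresholded peaks. Promoter here means a summit at most 500 bp from a start site of any transcript, and every other summit was assigned in turn to exon parts, introns or the space between genes. Promoters held 709 members, 25.6% (95% exact binomial interval 24.0 to 27.3), and 874 thresholded peaks, 46.2% (43.9 to 48.5), and the shares differed by Fisher's exact test (two-sided, adjusted over 7 classes, p = 5.60e-47). Coding exons held 422 members, 15.3%, and 35 thresholded peaks, 1.85%, an 8.24-fold difference (adjusted exact p = 3.67e-61). With the lists of a single replicate the fold was 14.1 for replicate 1 (12.9% against 0.916%) and 28.7 for replicate 2 (16.7% against 0.582%). Promoters covered 13.6% of the bases of the arms and coding exons 13.7%, so members lay in promoters more often than the share of bases and in coding exons close to it. Each place was counted once in these tests, and the intervals cover counting error only, not the spread between embryos.

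The remaining classes differed by fewer percentage points. Intergenic summits made up 525 members (19.0%) and 267 thresholded peaks (14.1%), with an adjusted exact p of 3.41e-05, and both were below the 27.2% of bases that are intergenic. The 3' UTR held 54 members (1.95%) against 15 thresholded peaks (0.793%, adjusted exact p = 0.00207), and exons of non-coding transcripts held 35 (1.26%) against 11 (0.581%, adjusted exact p = 0.0321), a call that was lost with either replicate's own lists (adjusted exact p = 0.311 for replicate 1 and 0.858 for replicate 2). The 5' UTR share, 0.940% against 0.476%, did not pass (adjusted exact p = 0.098), though it did with replicate 1's lists (adjusted exact p = 0.0465). Introns took 996 members, 36.0% (34.2 to 37.8), and 36.0% (33.8 to 38.2) of the thresholded peaks (adjusted exact p = 1), where they make up 39.5% of bases. Among intronic summits, 594 of 996 members (59.6%) lay in the first intron of a coding transcript, against 471 of 681 thresholded peaks (69.2%, Fisher's exact test, p = 6.95e-05). The coding genes around intronic members had a median span of 34.3 kb, against 29.5 kb for thresholded peaks and 38.0 kb for the rows after 5000 up to 8000. Any intronic position falls mostly in long genes, so these spans are not set against the span of a typical gene.

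Along the ranking both shares changed within each set as well as between the sets. When the thresholded peaks were split at their median signal, the promoter share was 51.8% in those above and 40.6% in those below, in the members of rows up to 3000, 4000 and 5000 it was 27.0%, 28.4% and 21.8%, and it was 21.04% in the 2970 places chosen the same way from the rows after 5000 up to 8000. Members had promoters more often than those later places (adjusted exact p = 1.56e-04). The coding exon share ran the other way, from 0.423% and 3.28% to 11.5%, 16.0% and 17.7% within the members and 19.4% in the later places, also a difference that passed (adjusted exact p = 1.56e-04). The 195 thresholded peaks inside the members' own rows, a comparison added after the values were seen, lay between: 35.9% were at promoters and 7.18% in coding exons, a fold of 2.12 for the latter, and both differed from the members (adjusted exact p = 0.00826 for each). In that comparison the intergenic share was 19.0% in both sets (adjusted exact p = 1) and the first intron share of 59.6% against 67.1% did not pass (exact p = 0.256).

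**Figure D2:**
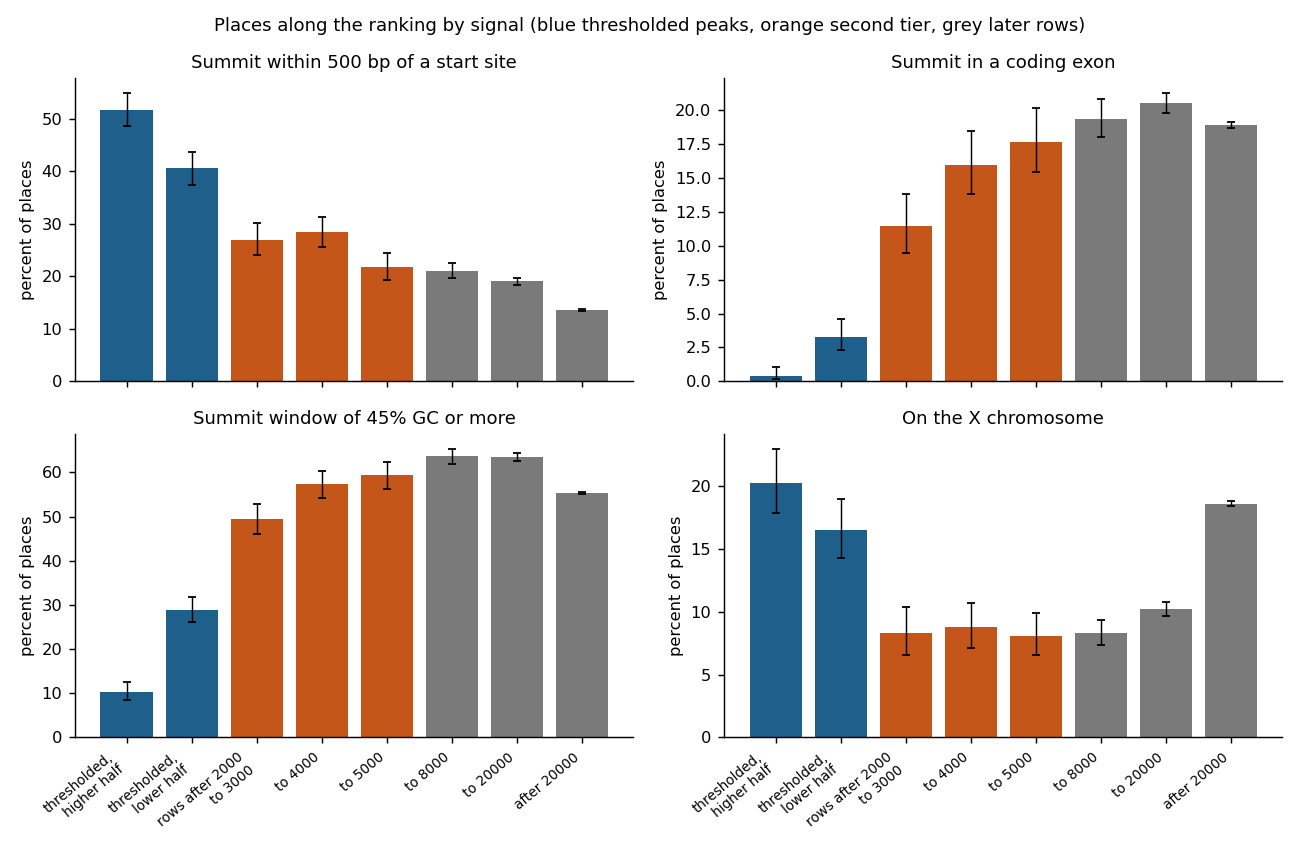
Share of places (percent, with 95% Wilson intervals) whose summit lay at a promoter, in a coding exon, in a window of 45% GC or more, or on X, for the thresholded peaks above and below their median signal (blue), the members in 3 steps of rows (orange) and later rows of the ranked list without thresholded peaks (grey). Promoter share fell and coding exon and GC shares rose into the members, while the X share was near 8% in all 3 member steps and 18.6% after row 20000.

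Near start sites the members were centred on the start site, whereas thresholded peaks sat before it. Of 628 members within 500 bp of a protein-coding start site, 318 (50.6%, 46.7 to 54.6) lay upstream, against 643 of 806 thresholded peaks (79.8%, 76.8 to 82.5; Fisher's exact test, p = 2.62e-31). The median signed distance within that range was -7.5 bp for members and -105 bp for thresholded peaks, where negative values are upstream. In the later rows 233 of 537 (43.4%) lay upstream, and the members differed from these too (exact p = 0.0158). Against the 195 thresholded peaks of the same rows, of which 62.9% of those near a start site lay upstream, the difference did not pass (exact p = 0.0827). Over all members the median distance to a protein-coding start site was 1879 bp and 784 (28.3%) lay over 5000 bp away, compared with 754 bp and 376 (19.9%) for thresholded peaks.

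**Figure D3:**
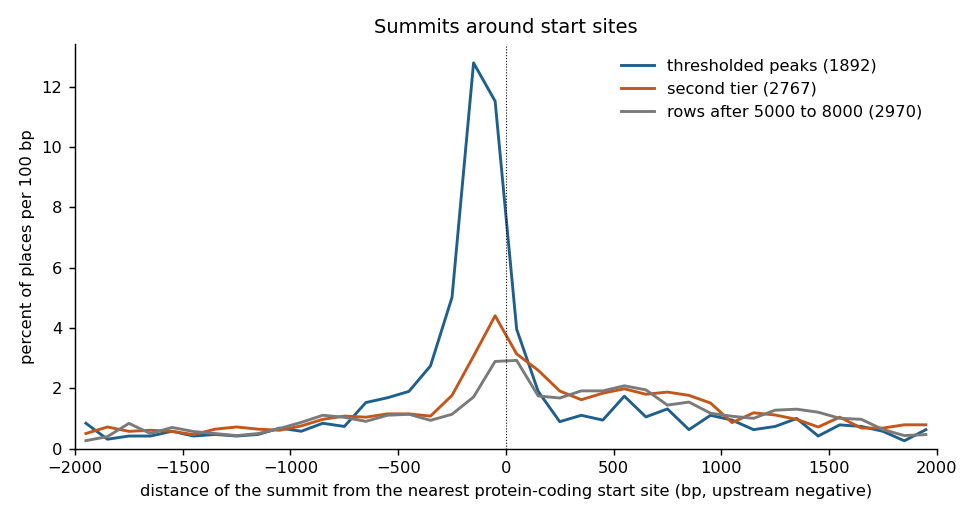
Percent of places per 100 bp (vertical) by distance of the summit from the nearest protein-coding start site (horizontal, bp, upstream negative) for thresholded peaks (blue), members (orange) and the rows after 5000 up to 8000 (grey). Thresholded peaks reached 12.8% between 200 and 100 bp upstream, where the members had 3.07%, and the members' highest value was 4.41% in the 100 bp before the start.

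The GC content of the members was higher than that of the thresholded peaks, of their own flanks and of the genome. The median GC of the window of 50 bp to each side of the summit was 46.5% in members (quartiles 38.6% and 53.5%) and 34.7% in thresholded peaks (28.7% and 42.6%), and 42.6% over windows tiled along the arms. A window of 45% GC or more was found at 1542 members, 55.7% (53.9 to 57.6), and 371 thresholded peaks, 19.6% (17.8 to 21.5), a 2.84-fold difference (Fisher's exact test, p = 3.13e-140), while 40.1% of tiled windows and 38.8% of windows 500 bp to either side of the members reached it. The comparisons with flanks and tiled windows are descriptions. Members stood above their flanks in GC, and thresholded peaks below theirs. Mean GC of members was 41.7% at 500 bp before the summit and 46.1% at the summit, and of thresholded peaks 43.1% and 35.8%. The later rows went further in the members' direction, with 63.6% of windows at 45% or more (exact p = 1.31e-09 against the members).

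The difference passed at promoters, in introns and between genes, and did not pass in coding exons. At promoters 54.3% of member windows and 19.5% of thresholded windows reached 45% GC (adjusted exact p = 2.92e-47), in introns 43.7% and 15.3% (adjusted exact p = 5.61e-36), and between genes 51.6% and 21.7% (adjusted exact p = 2.35e-16). In coding exons the shares were 92.9% (90.0 to 95.2) and 91.4% (76.9 to 98.2; adjusted exact p = 0.731), with medians of 56.4% and 55.4%, the latter over only 35 thresholded peaks. Among the members the spread was wide: 8.35% of windows were under 30% GC and 8.78% at 60% or more. Members from rows up to 3000 had a median of 44.6%, and those up to 4000 and up to 5000 both had 47.5%. Against the 195 thresholded peaks in the same rows, 37.9% of which reached 45% GC, the members still differed (exact p = 1.63e-06). The part of GC content in how fragments were recovered was not tested.

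**Figure D4:**
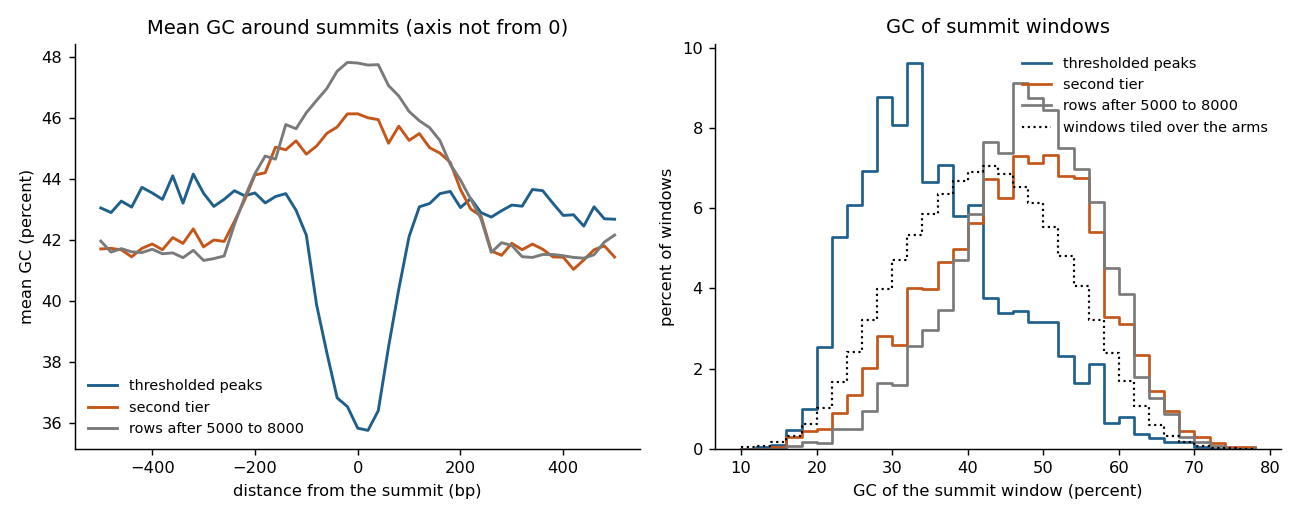
Left, mean GC (percent, axis not from 0) by distance from the summit (bp); right, percent of summit windows by GC content, for thresholded peaks (blue), members (orange), rows after 5000 up to 8000 (grey) and windows tiled over the arms (dotted). Mean GC at the summit was 46.1% in members and 35.8% in thresholded peaks.

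Members were scarce on the X chromosome. X held 232 members, 8.38% (7.38 to 9.48), against 348 thresholded peaks, 18.4% (16.7 to 20.2), a ratio of 0.456 (Fisher's exact test, adjusted over 6 arms, p = 5.41e-23), although X makes up 17.6% of the length of the arms and 17.6% of all ranked places. The share was 8.30%, 8.77% and 8.08% in the 3 steps of rows and 8.32% in the rows after 5000 up to 8000, and it was 10.2% up to row 20000 and 18.6% beyond. The rows chosen the same way from each replicate's own list had X shares of 9.39% in replicate 1 and 8.87% in replicate 2, where the replicates' own thresholded lists had 20.2% and 18.7%. The 195 thresholded peaks of the same rows had 14.4% on X (adjusted exact p = 0.049). Chromosome arms 3L and 3R each held 707 members, 25.6%, more than the 21.6% and 21.8% of thresholded peaks (adjusted exact p = 0.00556 and 0.00751). The 3L call was lost with replicate 1's lists (adjusted exact p = 0.129) and the 3R call with those of replicate 2 (adjusted exact p = 0.0747), and both were lost against the 195 peaks of the same rows (adjusted exact p = 1 and 0.182). Arms 2L and 2R, with 20.5% and 19.9% of members, and chromosome 4 did not pass.

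The X members also differed from the others in the values that accompany them. Their median GC was 39.6% against 47.5% on the other arms, 9.48% lay in coding exons against 15.8%, and 47.0% in introns against 35.0%, while the promoter shares of 26.3% and 25.6% and the median signals of 46.1 in both were close. These splits were not tested. By class, X held 8.60% of promoter members, 10.9% of intronic members, 5.21% of coding exon members and 5.33% of intergenic members, and among thresholded peaks 16.4% of promoter peaks, 24.96% of intronic, 0 of 35 coding exon and 8.61% of intergenic ones.

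Chromosome 4, where dati itself lies, held 4 members. The highest, with a signal of 52.7, lay between genes on chr4:1291661-1291924, 59910 bp from the start of Cadps, a gene of neurosecretory vesicle release. The next lay at chr4:397381-397644 with a signal of 52.4 and an IDR of 0.0228, 1908 bp upstream of the start of dati, which is on the minus strand at chr4:375640-395605. Its signal was 17.5 in replicate 1 and 36.8 in replicate 2, so the place near dati was higher in replicate 2. The other two lay in a coding exon of Actbeta, an activin-like ligand (49.3), and 493 bp inside zfh2, a zinc finger and homeodomain factor (43.7), the latter with no place in the list of replicate 2.

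Of 24 motifs listed, 4 (16.7%) were more frequent in member windows than in windows of thresholded peaks and 9 (37.5%) less frequent, by Fisher's exact test with p adjusted over the 24. Each was searched as letters on both strands, and a match is not a binding site. The motif with the lowest p was the TATA box, TATAAA, the core promoter element bound by TBP, in 8.64% (7.62 to 9.75) of members and 18.2% (16.5 to 20) of thresholded peaks (adjusted exact p = 2.75e-20), with 11.7% of tiled windows between them. The homeodomain core TAATTA was in 4.99% against 8.93% (adjusted exact p = 1.72e-06). The Mef2-type site TATTTATA was in 1.23% against 2.75% (adjusted exact p = 0.00131). It contains TTTATA, the TATA box on the other strand, so each of its matches is also a TATA box match and these calls are not separate. The DRE, TATCGATA, a promoter element of housekeeping genes, was in 0.325% against 1.16% (adjusted exact p = 0.00255). It was in 0.275% of tiled windows and 0.470% of the members' flanks, so there the thresholded peaks were the ones that lay higher. The core promoter motif 1, GGTCACACT, was in 5 members, 0.181%, against 0.634% (adjusted exact p = 0.042), and motif 6, GGTATTTT, in 0.361% against 1.00% (adjusted exact p = 0.0159). Tiled windows held motif 1 at 0.0975%, below both sets, and motif 6 at 0.602%, between them. The E-box CATATG (2.31% against 4.02%, adjusted exact p = 0.00345) was also less frequent in members, as were the GATA site AGATAA (4.41% against 6.24%, adjusted exact p = 0.0159) and a run of 8 A (5.17% against 7.08%, adjusted exact p = 0.0159).

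The motifs that were more frequent in members held more G and C than the TATA box or the homeodomain core. GAGAG, the core of sites for the GAGA factor, was in 14.2% of members and 10.4% of thresholded peaks (adjusted exact p = 9.08e-04), with 11.4% in tiled windows. The CA repeat CACACACA was in 2.96% against 1.37% (adjusted exact p = 0.00157), the E-box CAGCTG in 5.64% against 3.49% (adjusted exact p = 0.00255), and GCCAT, the core of sites for the Polycomb group protein Pho, in 19.7% against 16.0% (adjusted exact p = 0.00351). The GCCAT share of members was that of tiled windows, also 19.7%, so there the thresholded peaks were the ones that lay lower. Calls that were lost with replicate 1's lists were those of the DRE (adjusted exact p = 0.203), motif 1 (1) and motif 6 (0.305), and with replicate 2's lists motif 1 (0.330) and CAGCTG (0.147). Motif shares follow base content, which differed between the sets, and the motifs were not compared at equal GC. Within promoters, GAGAG stood at 15.2% of members against 7.89% of thresholded peaks (adjusted exact p = 7.26e-05) and TATAAA at 9.45% against 19.5% (adjusted exact p = 4.39e-07). Away from promoters GAGAG did not pass (13.9% of members, adjusted exact p = 0.543), while TATAAA did (8.36% of members, adjusted exact p = 6.70e-11). The Zelda site CAGGTA, bound by the activator of the early embryonic genome, was in 2.67% of members and 2.27% of thresholded peaks (adjusted exact p = 0.465).

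**Figure D5:**
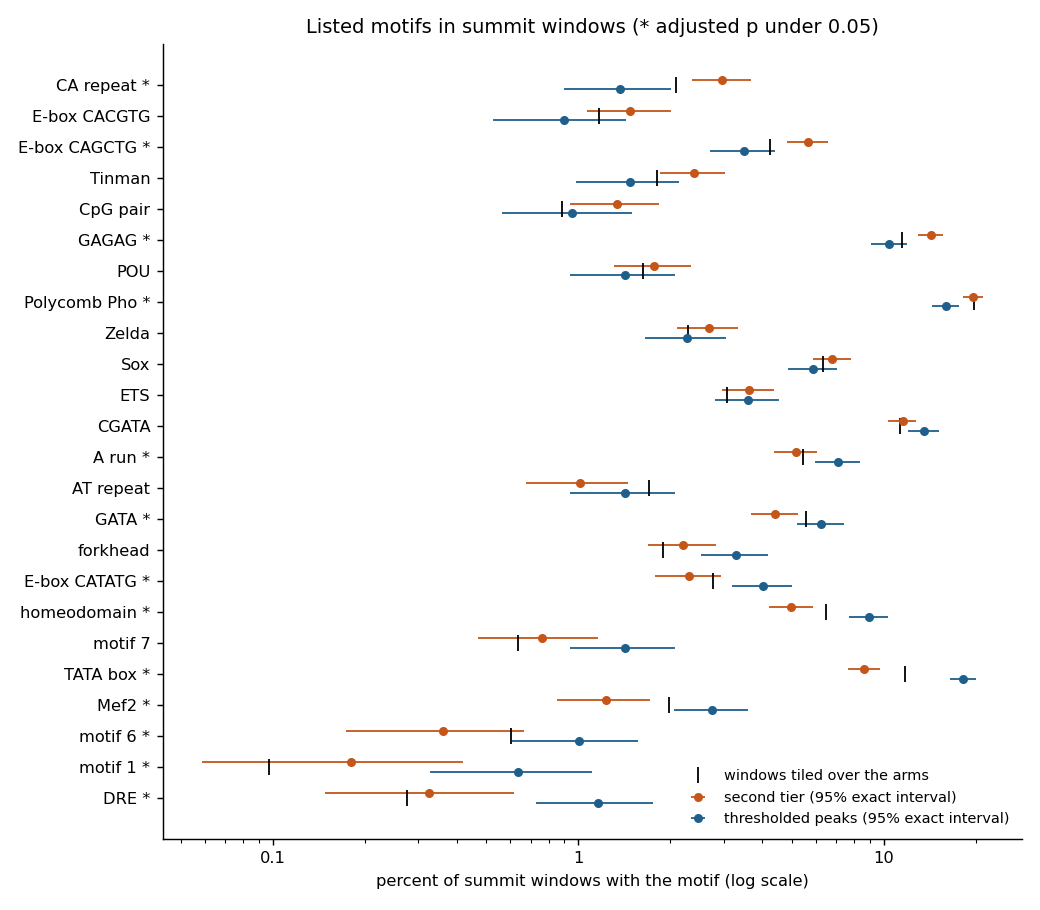
Percent of summit windows that hold each of the 24 motifs (log scale) in members (orange) and thresholded peaks (blue), with 95% exact intervals, and in windows tiled over the arms (black ticks); motifs are ordered by the ratio of members to thresholded peaks, and an asterisk marks an adjusted p under 0.05. The TATA box stood at 8.64% in members and 18.2% in thresholded peaks, on either side of the 11.7% of tiled windows.

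Among 6-base sequences, the 10 with the highest ratio at members on some arms did not pass the test on the others. Of 2080 sequences of 6 bases, 36 (1.73%) were more frequent in member windows than in the members' flanks on 2L, 2R, X and 4, and 29 (1.39%) less frequent. Of the first 36, 32 had at least 4 G or C, and all 29 of the second had at least 4 A or T. The 10 with the highest ratio were taken to the members on 3L and 3R, where 0 passed (Fisher's exact test, lowest adjusted p = 0.255). All 10 kept a ratio above 1 there, from 1.08 for CCGACC to 1.43 for CCCCTC. The others of the 36 were not tested on these arms. At an unadjusted p under 0.05 there was 1, CCCCTC, in 3.89% of member windows and 2.72% of flanks (exact p = 0.0484).

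Neither transposable elements nor transfer RNA genes passed the test between the sets. A summit lay inside an annotated transposable element for 18 members (0.651%) and 8 thresholded peaks (0.423%; adjusted exact p = 0.455), where such elements cover 5.93% of bases, and within 500 bp of a transfer RNA gene for 8 of each (0.289% and 0.423%, adjusted exact p = 0.455), where 0.174% of bases lie that close. Summits in soft-masked sequence, the simple and dispersed repeats marked in the assembly, were less frequent in members, 13.1% against 19.4% (adjusted exact p = 3.21e-08), with 20.1% of bases masked. Against the 195 thresholded peaks of the same rows the direction turned, 13.1% against 9.23%, and did not pass (adjusted exact p = 0.156).

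The distance from each member to the thresholded peaks was then measured. The median distance to the nearest one was 16657 bp, with 174 members (6.29%) within 1000 bp, 448 (16.2%) between 1000 and 5000 bp, 904 (32.7%) between 5000 and 20000 bp, and 1241 (44.9%) beyond. In the rows after 5000 up to 8000 the median was 18473.5 bp. This measure partly follows from the rule, which removed overlaps, and it was not tested. Distances from random positions were not computed, so the members cannot be called near or far.

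Genes were then counted by the places near them. Of 13945 protein-coding genes on the arms, 1249 (8.96%) had a member within 1000 bp of a start site and 1327 (9.52%) a thresholded peak. Both kinds were found at 160 genes, 12.8% of the former and 12.1% of the latter. These shares were above the 9.52% and 8.96% of all genes, and 1089 genes had members alone. Counting a gene when a summit lay in its span or within 1000 bp of it, 2311 genes (16.6%) had a member and 1934 (13.9%) a thresholded peak, with 591 genes in both. The rule removed places that overlapped a thresholded peak, so no overlap was tested. Each count for a gene list below is to be read against these shares, and no list was tested.

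The largest gap between the sets was at the cytoplasmic ribosomal protein genes, which encode the protein part of the ribosome. Of 92 genes, 8 (8.70%) had a member near a start site, whereas 46 (50%) had a thresholded peak, and 3 had both. The first count depended on the replicate: the same rows of replicate 1's own list gave 24 of these genes and those of replicate 2 gave 9, where they gave 1433 and 1145 of all genes. The highest was at RpL34a (signal 52.5; 24.2 in replicate 1 and 15.5 in replicate 2), 13 bp after the start. The member at RpS18 (51.7; 27.9 and 26.0) lay 659 bp from the start and 614 bp from a thresholded peak. Of 73 mitochondrial ribosomal protein genes 5 (6.85%) had a member and 10 (13.7%) a thresholded peak. The members of highest signal among them, near mRpS16 (51.1), mRpL23 (46.7) and mRpL46 (46.1), included 2 in coding exons. That near mRpL23 lay in its neighbour CG9004, and that near mRpS16 lay 218 bp upstream, inside the gene cg.

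For proteasome genes the share near members was above the 8.96% of all genes, and that near thresholded peaks was below the 9.52%. Of 48 genes of the protease that degrades ubiquitin-marked proteins, 7 (14.6%) had a member and 2 (4.17%) a thresholded peak, but the rows of replicate 1's own list gave 4 and those of replicate 2 gave 3. The member nearest Rpt5, an ATPase subunit, reached 50.4 (33.7 in replicate 1 and 14.0 in replicate 2) but lay in a coding exon of its neighbour RanBP3, 822 bp upstream. Those of Prosbeta5R2 (48.9) and Prosalpha3 (48.4), core particle subunits, lay in the gene's own coding exon and 762 bp upstream, inside the neighbouring dgt3. Of these 3 summits, 1 lay in the gene it was assigned to and not in a neighbour.

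Lists of nervous system genes had shares near start sites that were near or above that of all genes in the pooled list. Of 43 genes of axon guidance and neural adhesion, 8 (18.6%) had a member near a start site and 7 (16.3%) a thresholded peak, and 27 (62.8%) had a member in their span against 16 (37.2%). At robo2, a receptor for the guidance cue Slit, the member lay 84 bp after the start (52.5; 18.6 in replicate 1 and 33.0 in replicate 2), and its IDR of 0.569 was among the 761 above 0.1. At beat-Ia, a motor axon guidance gene, the member lay 189 bp upstream (50.6; 29.1 and 24.8), with an IDR of 0.0152 and no thresholded peak within 138359 bp. At trio, a guanine nucleotide exchange factor, it lay 288 bp upstream, inside CG9205 (48.0; 28.8 and 14.4).
Of 47 synaptic, transmitter and ion channel genes, 7 (14.9%) had a member and 2 (4.26%) a thresholded peak, and 5 and 3 had one in the rows of replicates 1 and 2. These were led by dlg1, a synaptic scaffold (54.7; 31.3 and 26.6), Nrx-1, a neurexin (47.6; 34.5 and 16.3), and Sh, the Shaker potassium channel (46.6; 24.9 and 18.7). Of 15 glial genes 4 (26.7%) had a member and 3 (20%) a thresholded peak, but 1 and 2 had one in the rows of replicates 1 and 2. The members were led by pnt (50.8), wrapper of the midline glia (45.1) and Nrx-IV of the septate junction (44.99). That near Nrx-IV lay 554 bp upstream, inside eIF3l. Of 47 regulators of neuroblasts and neuronal identity 4 (8.51%) had a member, near the share of all genes, and 16 (34.0%) had one in their span. The highest were lola (48.7; 30.3 and 18.6), 112 bp after the start and 334 bp from a thresholded peak, pros (46.9; 10.54 and 35.0) and tup (46.2; 17.1 and 24.3). A span count rises with gene length, which was not adjusted for, so these span shares are not set against the background.

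The remaining lists had shares from 0% to 15.4%. Of 39 signalling ligands and receptors 6 (15.4%) had a member and 5 (12.8%) a thresholded peak, with none at both, and 20 (51.3%) had a member in their span. The members at pnt, an ETS factor of receptor tyrosine kinase signalling (50.8), and Ser, a Notch ligand (48.9), had an IDR of 0.0123 and 0.0132. At vn, an epidermal growth factor receptor ligand, 1 member lay 161 bp after a start (47.2) and another in an intron 11732 bp from it with a signal of 55.3. Of 29 segmentation and patterning genes 3 (10.3%) had a member: bcd, the anterior morphogen (53.2), nkd, a Wingless antagonist (47.9), and cad (47.1); the rows of replicates 1 and 2 gave 2 and 5. Of 32 mesoderm and muscle genes 2 (6.25%) had one, bap (51.1) and Zasp52 (47.7), and of 21 epidermal and tracheal genes 2 (9.52%), rib (49.3) and kkv, the chitin synthase (45.3).
Of 28 Polycomb and trithorax group genes 4 (14.3%) had a member and 8 (28.6%) a thresholded peak, with 7 and 6 in the rows of replicates 1 and 2, the members led by Su(z)2 (53.1; 22.7 in replicate 1 and 29.8 in replicate 2). Then followed brm (46.6) and mor (45.9), both subunits of a chromatin remodeller. The place near mor lay 455 bp upstream, inside Hel89B. Of 15 heat shock genes 1 had a member, Hsp22 (49.8), where replicate 1 had 41.0 and replicate 2 had 10.1, and the window was 19.8% GC. None of the 10 Hox genes and cofactors had a member near a start site, although 5 had one in their span, and none of 111 replication-dependent histone genes had one in either. Thresholded peaks were alike here, with 0 genes near a start site in both lists, 4 Hox genes and cofactors in span and 0 histone genes in span. The rows of replicate 2's own list gave 1 gene near a start site in each of these 2 lists.

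Several long genes held many members. The counts were 10 in bun, a TSC-22 family gene of 91.1 kb, 9 in rdx, an adaptor of the Hedgehog pathway, and 8 each in Sema1a, a semaphorin, luna, a Krüppel-like factor, mbl, the splicing factor muscleblind, and tara. CG42238, RapGAP1, nmo, the Nemo kinase, and sbb held 6 each. Most of these members were intronic, 8 of 10 in bun and 8 of 8 in tara. The 10 genes were picked by member count. A density above the 2.07 members per 100 kb of the arms therefore partly follows from that choice. The gene tara was the densest of the 10, with 23.1 members per 100 kb over 34.7 kb. It held 0 thresholded peaks, although a thresholded peak of signal 535 lay 3169 bp upstream of its start. Its 8 windows ran from 47.5% to 57.4% GC. In sbb the order was the other way, with 6 members and 8 thresholded peaks. In all, 350 genes held at least 2 members, 123 at least 3 and 16 at least 5.

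At the upper end of the range, the promoter members of highest signal were near Ubc6, a ubiquitin-conjugating enzyme, Swip-1, a calcium-binding protein, scyl, a regulator of growth, CG42382 and CG5721. The Ubc6 place (chr3R:4952560-4952823), 10 bp upstream of the start, reached 55.3 in the pooled list, 19.6 in replicate 1 and 29.7 in replicate 2. The scyl place had 31.1 in replicate 1 and no place in replicate 2, and lay at the start of a non-coding transcript, 3777 bp upstream of scyl. The intronic members of highest signal were in Sms, ftz-f1, CG33298, Pvf2 and vn. That of Sms had 11.9 in replicate 1 and 40.5 in replicate 2, with an IDR of 0.105. That of CG33298 had an IDR of 0.663 with values of 25.02 and 29.2. In these places the IDR did not follow how close the replicate values lay. The replicate columns of the pooled list name no replicate, so the pair of lists behind its IDR is not known here. Between genes the highest were nearest Dyro, CG7255, CG6304, Reg-2 and ths, an FGF ligand. The Reg-2 place had 46.4 in replicate 1 and 17.1 in replicate 2, and the CG6304 place was 211370 bp from any thresholded peak.
In the remaining classes all 5 of the highest were in coding exons, of SecS, rho-5, a rhomboid family gene, Dpit47, MFS15 and syd, a motor adaptor of axonal transport, with windows of 52.5% to 63.4% GC. The last rows inside were an intergenic place 9846 bp from IntS3, one 12 bp upstream of kibra and one near Muc68D, each with a signal of 42.8. The rows just beyond were a coding exon of Pez and introns near Tis11 and lilli, also at 42.8.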

How the data were processed

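Peak lists on dm6 were deposited for 2 replicates and for both together, per the file headers and the documentation deposited with the libraries. The aligner and peak caller were not given in the sources used here. The deposited signal value is the caller's enrichment per place, the deposited score is a scaled IDR, and the authors' −log10 IDR was turned back into an IDR. The deposited summit offset, in bp, gave the summit. Read depth is not known from peak lists, and 8 columns of the pooled list that name no replicate were not used. Whether the replicates are separate cultures of flies beyond the label "biological" is not recorded.

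Places were sorted by signal and kept as described in the report. Locations came from Ensembl BDGP6 release genes and sequence from RefSeq's dm6 assembly, which share coordinates. Shares were compared with two-sided Fisher's exact tests (scipy 1.17.1, Python 3.11.15), adjusted by Benjamini-Hochberg within each family with a threshold of 0.05, and given 95% exact intervals. Flanks lay 500 bp from the summit. Nothing used to choose the members was tested. The tests were tried on simulated data. The members, gene lists and motifs were chosen with earlier results of these data known. Named genes were the 5 members of highest signal in promoters, in introns, between genes and elsewhere, 3 genes per list (1 of them is not reported here), the 8 genes with most members and those tied with them, dati, and the rows at each end; members of chromosome 4 were added after their values were seen. Of the listed names, 5 matched no gene. Alternatives are given in the closing section.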

Additional observations from a re-analysis of the deposited data

How the results depend on the processing

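No paired analysis was possible because the study has 1 group. All values here are differences in percentage points, members minus comparison set, unless called counts. The promoter, coding exon, X and GC differences kept their direction and passed the threshold under every alternative run, with each replicate's own lists giving -29.3 to -20.3, 11.99 to 16.1, -10.8 to -9.87 and 35.3 to 46.9. The intergenic difference was 2.64 to 9.21 there. The intron difference, near 0, was -1.05 for the rows after 3500, -2.81 with promoters of 250 bp and -0.43 with protein-coding start sites.

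Calls were tallied over the tested results and alternatives, with only the 13 called motifs of the 24 included. In this tally 62 calls were lost with the direction kept, 2 gained and 18 turned in direction, always without passing after the turn. A result that turned was counted only as turned, also where it had passed in the main comparison, so the 62 do not hold every lost call. Such turned calls were intergenic, soft-masked, 3L, motif 6, CAGCTG and the CA repeat in the comparison of the same rows, and DRE away from promoters. Motifs not called in the main comparison were left out, so calls they gained are not among the 2. Of the 62, 15 were lost against the 195 thresholded peaks of the members' own rows, a comparison added after seeing the data and made with fewer peaks. The intergenic difference there was -0.00074 and the soft-masked one 3.89, both turned. The upstream difference was -12.3 and the first intron difference -7.50, neither past the threshold. The 5' UTR was -0.086, 2L -2.59, 3L -0.60, motif 6 0.361, CAGCTG -1.54, the CA repeat -0.113 and transposable elements -0.888, all turned. Counts in that comparison were 0 motifs more frequent, 1 less frequent and 1 arm. None of the 13 motif calls of the main comparison was kept there, and the 1 motif was not among them. Elsewhere, 2L turned with the conservative set (-0.0171) and the rows after 3500 (-0.312), chromosome 4 with the latter (-0.0379), 2R with replicate 2's lists (-0.543, against 1.2 with replicate 1's), transfer RNA genes with replicate 1's (0.0384, against -0.111 with replicate 2's), and DRE away from promoters (0.0475).

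The TATA box and the homeodomain core, 2 of the 13 called motifs, kept their calls under every alternative except that comparison, and the other calls were lost under 2 to 7 of them. The count of motifs more frequent in members was 2 with windows of 25 or 100 bp to each side, and 1 within promoters and 1 elsewhere. The count less frequent was 4 for rows up to 3500, with the shorter window, within promoters and elsewhere. It rose from 9 to 11 with the conservative set, 12 with close summits merged and 13 with the longer window. Genes near members numbered 645 and 651 for the first and last rows, 732 within 500 bp, 2108 by nearest start site and 2311 by span. The 6-base sequences were higher and lower for 2 and 0 with the shorter window, 120 and 89 with the longer (3 then passed on 3L and 3R), and 96 and 111 when found on 3L and 3R. The 3' UTR call was lost for rows up to 3500 and transposable elements passed with the conservative set. Depth is unknown, so no limit from it can be given.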
